A study of Homo sapiens with 6 samples.

Results

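The genes described are 32 enzymes of nucleotide synthesis and salvage, chosen by symbol from a list of de novo purine and pyrimidine, deoxynucleotide and salvage enzymes. All 32 have a row among the 19792 genes of the deposited RNA-seq table. The cells were BT-549/tet-WDR5shRNA cells, a human triple-negative breast cancer line selected with puromycin after transduction with a doxycycline (DOX)-inducible shRNA against WDR5, a subunit of the COMPASS histone methyltransferase complexes. The series holds 3 libraries from cells given vehicle (0.1% DMSO) and 3 from cells given 500 ng/ml DOX, for a week by the study's methods. All 6 libraries carried the same shRNA vector, and no line with a control shRNA is part of the series. The single deposited table gives for each gene the authors' mean normalized count over all 6 libraries of both groups, together with the authors' own comparison of DOX with vehicle. The columns of that comparison were not used here. No value of a single library was used, so no difference between DOX and vehicle, no replicate error and no check of WDR5 itself can be given. What follows is therefore the level of each gene, averaged by the authors over vehicle and DOX.

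Nucleotides are built de novo from small precursors or recovered by salvage of bases and nucleosides. Both purine and pyrimidine synthesis draw on phosphoribosyl pyrophosphate (PRPP), and ribonucleotide reductase turns ribonucleotides into the deoxynucleotides needed for DNA. Proliferating tumor cells are known to use the de novo routes heavily, and several of these enzymes are targets of antimetabolite drugs.

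Marker genes were looked up to check the cell line's label. VIM, FN1 and CDH2, which encode mesenchymal proteins, had levels of 22183, 3631 and 1019 mean normalized counts per kb of transcript. Of the epithelial genes, EPCAM had 0.84, CDH1 12.4, KRT8 32.1 and KRT18 308 on the same scale. The hormone receptor genes ESR1 and PGR had 0.12 and 0.061 per kb, while ERBB2, which encodes HER2, had 268. PTPRC, a blood cell marker, had 8.34 counts per kb, while HBB and CD3E were not analysed here. KRT18 and ERBB2 were thus above 209 per kb, the median of all genes, and the other epithelial and receptor genes were far below it.

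Longer transcripts yield more reads. Unless stated otherwise, genes were therefore compared after the authors' mean was divided by the length of the gene's canonical transcript in GENCODE 44 (GRCh38). On this scale the members had a median of 630 mean normalized counts per kb of transcript, against 209 for the 13018 genes that had a length and reached a minimum mean normalized count of 10. Unless another setting is named, a percentile below is the percent of those 13018 genes with a lower level per kb. Without scaling by length, the means themselves were ranked among all 13548 genes at that minimum. Without a filter, all genes with a length and a mean above 0 were used. Of the 31 members at or above that minimum, 27 lay above the 50th percentile, 17 above the 75th and 4 above the 90th. The 31 levels spanned a 69.4-fold range, from DHODH to IMPDH2. The median percentile of the members was 76.6. Since the table holds 1 mean a gene, which neighbours in this order differ beyond the spread of libraries is unknown. In a bulk mean, a gene used in fewer cells and a gene with less RNA per cell also cannot be told apart.

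**Figure D1:**
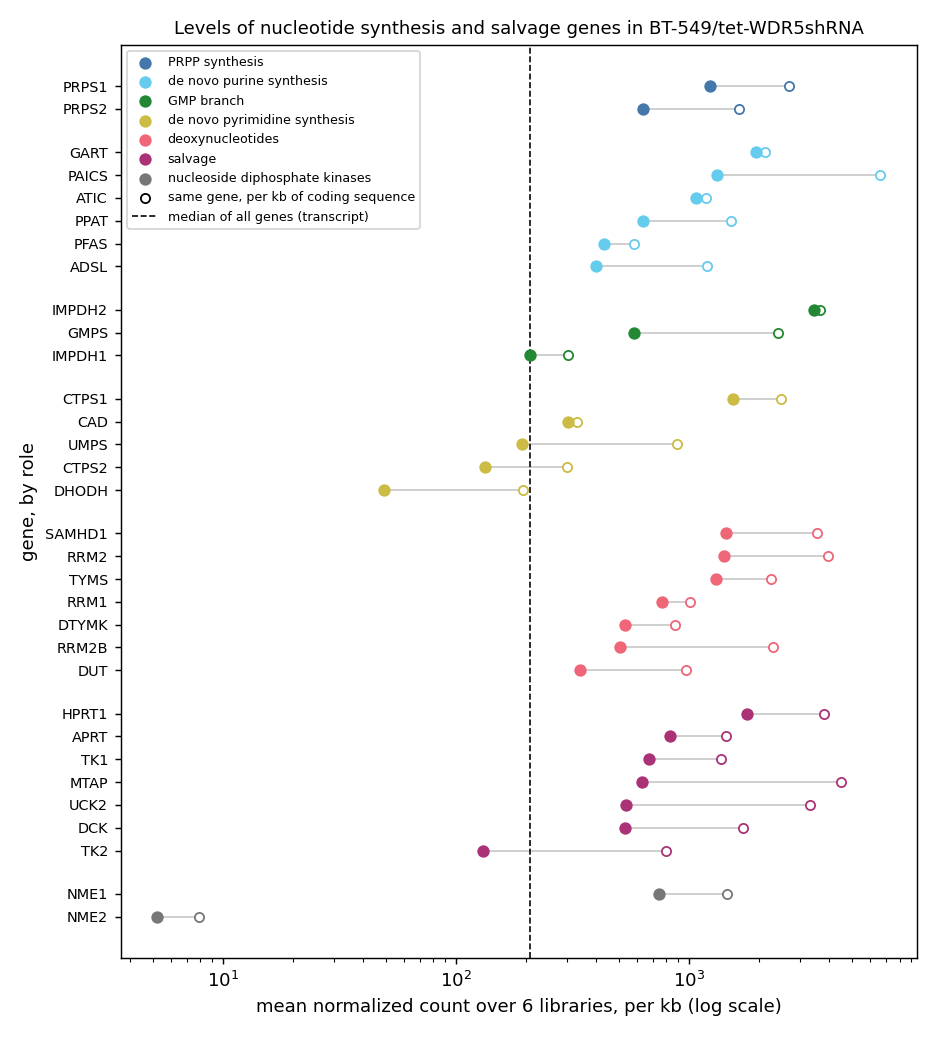
Each row is a gene, grouped by role, and the x axis is the authors' mean normalized count over 6 libraries per kb on a log scale. Filled points are scaled by transcript length and open points by coding length. The dashed line marks the median of all genes, 209 per kb of transcript, and can be compared with the filled points only. IMPDH2 is the rightmost filled point at 3421, and NME2 stands apart on the left at 5.22.

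**Figure D2:**
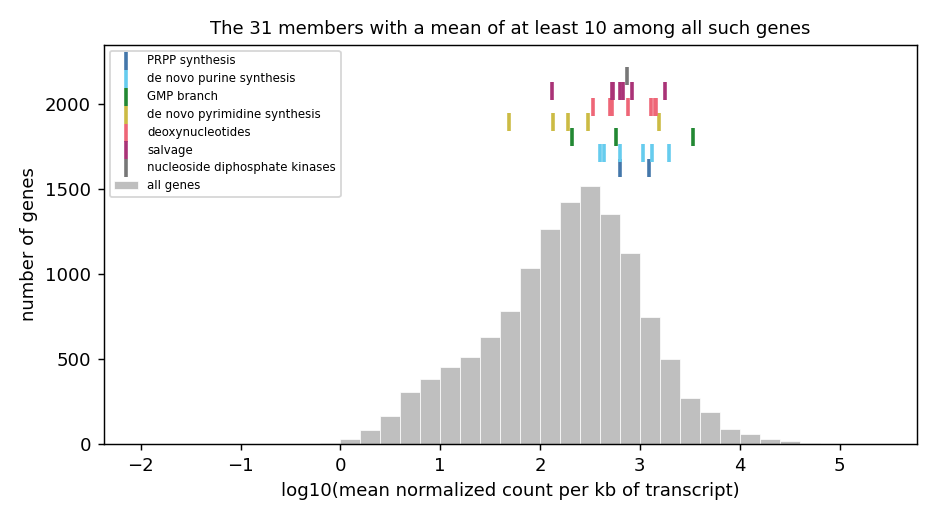
The grey bars count all genes that reach a mean normalized count of 10 by log10 of the mean normalized count per kb of transcript, and each coloured tick above is 1 of the 31 members that reach it, in its role; NME2 does not and is not drawn. Most ticks lie right of the tallest bars, and the leftmost tick is the pyrimidine synthesis gene DHODH.

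PRPP is made by PRPP synthetases, of which PRPS1 and PRPS2 were measured. PRPS1, on chromosome X from 107628428 to 107651993, had a mean normalized count of 2550, or 1232 per kb of transcript (percentile 88.1). PRPS2, also on chromosome X, from 12791355 to 12824222, had 632 per kb (percentile 76.6). The level of PRPS1 was thus 1.95 times that of PRPS2 per kb of transcript.

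The 6 genes of de novo purine synthesis all lay above the middle of all genes, with a median of 851 mean normalized counts per kb. GART, an enzyme that catalyses several steps of the ring assembly, was the highest of them per kb of transcript at 1941 (percentile 92.8), though below PAICS by coding length. PAICS, which joins a pair of consecutive steps in 1 protein, had 1324 per kb, and its mean normalized count of 8435 was the highest of the 32 members before scaling by length. ATIC, which completes the purine ring, followed at 1066 per kb. PPAT, which catalyses the first committed step, was at 637 per kb (percentile 76.7). PFAS and ADSL, enzymes of intermediate steps, had 434 and 398 per kb of transcript.

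PPAT and PAICS lie head to head on chromosome 4. PPAT runs on the minus strand from 56393362 to 56435615 and PAICS on the plus strand from 56435741 to 56464578, so that 125 bases separate their annotated ends. The sequence of this spacer is shown because both genes are transcribed away from it. It was read from GRCh38 on the plus strand, chr4:56435616-56435740, with each GC box (GGGCGG) in capitals.
PPAT-PAICS spacer: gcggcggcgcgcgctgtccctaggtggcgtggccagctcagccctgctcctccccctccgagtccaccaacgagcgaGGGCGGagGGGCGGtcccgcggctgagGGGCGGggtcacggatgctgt
The GC boxes start at bases 78, 86 and 105 of the spacer, which has a GC content of 76.0%. No other motif of those searched, which are spelled out with the promoters further on, was present in these 125 bases. Although the pair shares this spacer, the level of PAICS per kb of transcript was the higher of the pair, 1324 against 637. The gap was wider per kb of coding sequence, 6616 against 1511, and no error can be given for it.

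Guanine nucleotides branch off through IMP dehydrogenase and GMP synthetase. IMPDH2, on chromosome 3 from 49024325 to 49029447, had the highest level of the 32 members per kb of transcript, with 3421 mean normalized counts (percentile 96.3). GMPS, which makes GMP, had 579 per kb (percentile 74.8). IMPDH1, on chromosome 7 from 128392277 to 128409986, had 209 per kb and stood in the middle of all genes (percentile 50.02). Per kb of transcript, IMPDH2 was 16.4 times IMPDH1. In GENCODE 44, 98.8% of the exon bases of IMPDH2 also belong to a second gene on the same strand, ENSG00000290315. The annotation used by the authors is not clearly named, and whether it held this second gene was not checked. How the authors' counter divided reads between such genes was not tested.

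De novo pyrimidine synthesis was the role with the lowest median among those with more than 2 genes, 192 mean normalized counts per kb. CTPS1, which converts UTP into CTP, stood apart from the other 4 genes at 1542 per kb (percentile 90.7). CAD, the large enzyme of the first steps, had 303 per kb (percentile 59.3) on a transcript of 7286 bases. UMPS, which forms UMP, had 192 per kb and CTPS2, the second CTP synthetase, 133 per kb. DHODH, the mitochondrial enzyme that oxidizes dihydroorotate, had 49.3 per kb on a mean normalized count of 230 (percentile 22.4), the lowest of the 31 members. Per kb of transcript, CTPS1 was 11.6 times CTPS2. Per kb of transcript, UMPS, CTPS2 and DHODH were 3 of the 4 genes below the middle of all genes among the 31 members at the minimum. The transcript of UMPS has 6652 bases, of which 1440 are coding, and without scaling by length UMPS was at percentile 65.6. Without a filter UMPS was at percentile 63.0 and CTPS2 at 57.2. DHODH stayed below the middle without a filter, among genes with a mean of at least 100 and without scaling by length.

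Per kb of transcript, the 7 deoxynucleotide genes all lay above the middle of all genes, with a median of 767 mean normalized counts per kb. Without scaling by length DTYMK fell below the middle, to percentile 45.9. SAMHD1, which breaks down deoxynucleoside triphosphates, had 1435 per kb of transcript (percentile 89.8). RRM2, the small subunit of ribonucleotide reductase made in S phase, had 1415 per kb (percentile 89.7). By coding length the order of this pair turned, with 3552 per kb for SAMHD1 and 3951 for RRM2. RRM1, the large subunit, had 767 per kb, and RRM2B, the small subunit known as a p53 target, had 505. The level of RRM2 was 2.80 times that of RRM2B per kb of transcript. TYMS, which makes dTMP, had 1304 per kb (percentile 88.8). DTYMK, which phosphorylates dTMP, had 529 per kb, and DUT, which removes dUTP, had 342. For TYMS, 66.5% of the exon bases are overlapped on the opposite strand by ENOSF1 and TYMSOS in GENCODE 44. The libraries were stranded, but whether the counting used strand is not given in the sources used here.

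Among the 7 salvage genes, HPRT1, which recovers hypoxanthine and guanine, was the highest at 1773 mean normalized counts per kb of transcript (percentile 92.0), though below MTAP by coding length. APRT, which recovers adenine, had 832 per kb. TK1, the cytosolic thymidine kinase of S phase, had 675 per kb, and TK2, the mitochondrial thymidine kinase, had 131 per kb (percentile 39.3). TK2 was the 1 salvage gene below the middle of all genes, and TK1 was 5.15 times TK2 per kb of transcript. DCK and UCK2, the kinases of deoxycytidine and of uridine and cytidine, had levels of 529 and 539 per kb of transcript, but of 1699 and 3306 per kb of coding sequence. MTAP, which cleaves the methylthioadenosine left by polyamine synthesis, had 629 per kb on a transcript of 6032 bases. The gene lies on chromosome 9 from 21802636 to 21937651.

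Nucleoside diphosphate kinases pass phosphate between di- and triphosphates. NME1, on chromosome 17 from 51153559 to 51162428, had a mean normalized count of 664, or 746 per kb of transcript (percentile 80.1). NME2, from 51165435 to 51171744 on the same strand, had a mean normalized count of 3.60, or 5.22 per kb, and was the 1 member under the minimum of 10. A readthrough gene, NME1-NME2, covers 87.4% of the exon bases of NME2 and 47.0% of those of NME1 in GENCODE 44. No value of NME1-NME2 was analysed here. Of the 50-base windows in the NME2 transcript, 86.6% also occur in the transcripts of another gene, NME1-NME2 or the pseudogene NME2P1. The value of NME2, and in part that of NME1, is therefore uncertain, and how reads in the shared exons were counted was not tested.

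The NME1 and NME2 coding sequences were 80.9% identical over 456 aligned bases and shared no window of 50 bases. Their longest identical stretch is shown, since it bounds how far a read of the coding sequence could match both genes without a mismatch. It has 23 bases, at coding positions 223 to 245 of each gene, and crosses an exon junction in both. The stretch spans from 51160076 to 51161176 of chromosome 17 in NME1 and from 51168338 to 51169953 in NME2, introns included, with the sequence taken from the GENCODE 44 transcripts and the bases common to both in lower case.
NME1 and NME2: gccatggtctgggaggggctgaa

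The other 5 pairs of enzymes with the same reaction were less alike in sequence than NME1 and NME2. Coding identity was 79.8% for PRPS1 and PRPS2, 77.1% for IMPDH2 and IMPDH1, and 75.5% for RRM2 and RRM2B. It was 70.3% for CTPS1 and CTPS2, and 63.9% for TK1 and TK2. Identity was taken over aligned bases only, with gaps left out. For TK1 and TK2 these were 651 bases, from coding sequences of 702 and 795. The identity of unrelated sequences aligned in this way was not computed, so how far these values exceed it is unknown. The longest identical stretch of these 5 pairs was 23 bases, in PRPS1 and PRPS2, and the shortest was 11 bases, in TK1 and TK2. None of the 6 pairs shared a 50-base window of coding sequence.

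**Figure D3:**
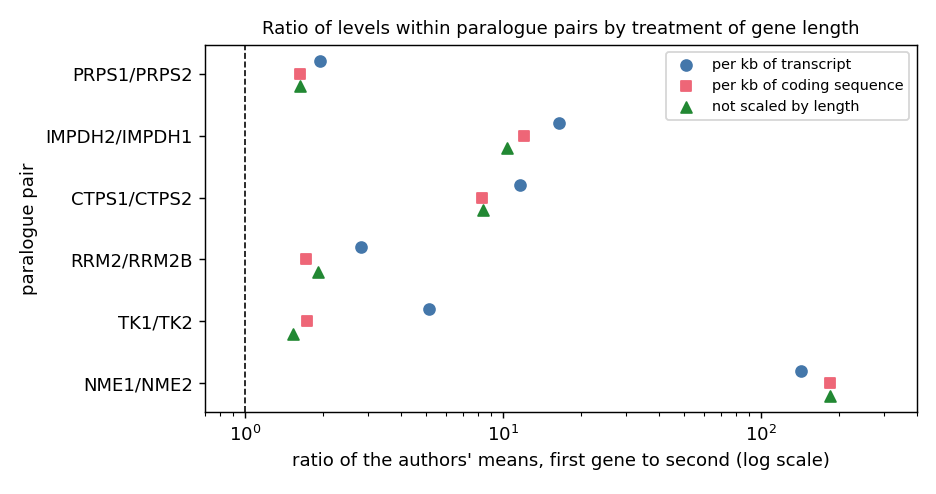
Each row is a pair of genes for the same reaction, and the x axis is the ratio of the authors' means, first gene to second, on a log scale with a dashed line at 1. Circles are per kb of transcript, squares per kb of coding sequence and triangles not scaled by length. All 18 points lie right of the line, and the TK1 to TK2 ratio moves most of the first 5 pairs, from 5.15 per kb of transcript to 1.53 without scaling.

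For all 6 pairs the gene named first had the higher level on each of the 3 length scales, as plotted by pair. Which gene is named first was a choice, so this says only that the direction within a pair was the same on each scale. The size of the ratio depended on the scale. Scaling by coding length lowered the RRM2 to RRM2B ratio from 2.80 to 1.73 and the TK1 to TK2 ratio from 5.15 to 1.73, because RRM2B and TK2 have long transcripts around short coding sequences. The transcript of TK2 is 4824 bases long and its coding sequence 795. The order of the members moved as well. MTAP went from rank 17 of 32 by transcript length to rank 2 by coding length, and PAICS from rank 7 to rank 1. IMPDH2 went from rank 1 to rank 5. Which transcript ends the cells used was not measured.

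Other members also share sequence with further genes. No 50-base window was shared with another gene by 14 of the 32 transcripts, among them GART, CAD, RRM2B, TK1 and HPRT1, and 6 shared at least 10% of their windows. Besides IMPDH2, NME1 and NME2 these were ADSL at 28.3%, IMPDH1 at 11.5% and PPAT at 10.2%. The largest sharer of ADSL was ENSG00000284431, which overlaps 30.6% of its exon bases on the same strand, and that of PPAT was the pseudogene PPATP1.

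Promoter windows, from 250 bases before to 50 after each RefSeq start (GRCh38.p14), were listed for 29 of the 32 members and 13481 genes of the table. In this paragraph all genes means these 13481, for which no minimum count was required, so genes with little or no RNA are included. ADSL, IMPDH2 and RRM2B had no entry. Motifs were searched on both strands, and a gene counted once if any of its windows held the letters. A gene with more listed starts thus has more chances to be counted. The E-box CACGTG, a site bound by MYC and MAX, was found for 6 of 29 members (20.7%) and for 11.4% of all genes. The 6 genes were PPAT, PAICS, ATIC, DHODH, DCK and NME1. The ends of PPAT and PAICS are 125 bases apart, so their windows can overlap and the same site may count for both. Of the E2F-type letters, TTTCCCGC was found for PRPS2, TYMS and DUT (10.3% of members, 2.91% of all genes), and TTTGGCGC for GART, DUT and DCK (10.3% and 1.20%). The CCAAT box was found for 41.4% of members and 42.2% of all genes, the GC box GGGCGG for 82.8% and 69.8%, and TATAAA for 10.3% and 10.2%. The core of the NRF1 motif, CATGCGC, was found for CTPS1 alone (3.45%) and for 7.51% of all genes. GC content was taken for each gene from its most GC-rich window, so a gene with more listed starts can score higher. The median of these values was 68.7% for the members and 66% for all genes. No test was made of these counts, which describe letters in a window.

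A further 39 genes of nucleotide metabolism were looked up, of which ADSS1 and ADSS2 are listed under older symbols. The 34 genes that reached a mean normalized count of 10 had a median of 590.0 mean normalized counts per kb and a median percentile of 75.1, and 25 of the 34 lay above the middle of all genes. NT5E, the surface enzyme that forms adenosine from AMP, was the highest at 6100 per kb (percentile 98.3). XDH, which makes uric acid, was the lowest of the 34 at 4.27 per kb. NME4, a mitochondrial nucleoside diphosphate kinase, had 2458 per kb, and CMPK1, which phosphorylates UMP and CMP, had 2006. AMPD1, UPP2, CDA, DPYS and GDA had a mean under 10.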

How the data were processed

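RNA-seq was performed by the authors on 6 libraries (TruSeq Stranded mRNA). Per the labels and the study's methods, reads were aligned to GRCh38 with STAR, and counts were normalized and compared with DESeq2. The gene counter, tool versions and any filter are not given in the sources used here. The methods append a number to GRCh38 that may mark an annotation release, and no annotation is named otherwise. RNA was isolated with a column kit per the labels and with Trizol per the study's methods. The deposited table holds 1 signal value a gene, the mean normalized count over all libraries, and the authors' log fold change, its standard error, statistic, p-value and adjusted p-value for DOX against vehicle. These comparison columns were not used, so no groups were compared and no test was run. Library depth is unknown, and the mean has no SD.

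The mean was divided by the length of the canonical transcript in GENCODE 44, where 17729 symbols matched directly, 580 through a RefSeq synonym and 1483 not at all. The main percentiles used the genes that had a length and reached a mean normalized count of 10. Alternatives were coding length, no scaling by length, and other filters. Windows of 50 bases were compared with all GENCODE 44 transcripts, and coding sequences were aligned globally with Biopython 1.88. Gaps were left out of the identity values. Promoters came from RefSeq. The functions were tested on simulated data. Computation used Python 3.11.15, numpy 2.4.6, pandas 2.3.3 and matplotlib 3.10.9. The members, lists and pairs were chosen with earlier results of these data known, and all 32 members are named. Among the other pathway genes, the highest and the lowest were named by rule, and NME4, CMPK1 and those under the minimum after their values were seen. A gene of the fixed list of other pathway genes is not reported here and is left out of its counts.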

Additional observations from a re-analysis of the deposited data

How the results depend on the processing

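No paired analysis was possible because the table holds a mean over all libraries and no column of a single one, and for the same reason leaving out a replicate and other normalizations of counts were not run. With no replicate error, any change at 3 significant digits was counted as a move. With coding length, the median level of the members rose from 630 to 1484 mean normalized counts per kb. A rise was fixed in advance, since a coding sequence is no longer than its transcript. No median of all genes by coding length was computed, so the place of the members among them on that scale is unknown. By coding length the pair ratios were 1.63 for PRPS1 to PRPS2, 12.1 for IMPDH2 to IMPDH1 and 8.24 for CTPS1 to CTPS2. They were 1.73 for RRM2 to RRM2B, 1.73 for TK1 to TK2 and 184 for NME1 to NME2. Without scaling by length the ratios were, in the same order, 1.63, 10.4, 8.31, 1.91, 1.53 and 184. No ratio changed direction under these settings. The NME1 to NME2 ratio, 143 per kb of transcript, rests on a mean of 3.60 for NME2. The median percentile of the members, 76.6, was 83.3 without a filter, 71.3 among genes with a mean of at least 100 and 78.2 without scaling by length. The number of members that changed side of the 50th percentile was 3, 1 and 4 under these settings. Without a filter UMPS, CTPS2 and TK2 rose above it. Among genes with a mean of at least 100, IMPDH1 fell below it. Without scaling by length UMPS rose above it, and IMPDH1, DTYMK and NME1 fell below it. Over the 31 members without NME2, the ranks by transcript length and by coding length had a Spearman rho of 0.75, a description over genes that share the same means.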
